A study of Mus musculus with 4 samples.

Results

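Lysosomes are acidic organelles in which hydrolases break down proteins, sugars, lipids and glycosaminoglycans that arrive by endocytosis, phagocytosis and autophagy. The hydrolases are soluble enzymes of the lumen, most of them delivered on mannose 6-phosphate, while membrane proteins such as LAMP1 and LAMP2 line the organelle and others carry ions or cholesterol across its membrane. In the retina, phagocytes and pigment epithelium are known for a high lysosomal load, and many of these enzymes are mutated in storage diseases that damage neurons. The 39 genes described here are 33 luminal proteins and 6 membrane proteins named in a list of lysosomal symbols, and all 39 were found among the 14572 entries of the deposited gene table. All 39 also passed the filter on low values, which left 12687 genes for testing.

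Whole retinas were sequenced as bulk RNA from C57BL/6 mice of 2 genotypes, wild type (WT) and PLSCR1 transgenic (TG), PLSCR1 being a phospholipid scramblase of the plasma membrane. Every sample, WT included, came from an eye in which the pressure had been raised for 1 h (acute ocular hypertension, a model of glaucoma injury) and was collected 5 days later, so each difference is between genotypes after injury. There were 2 libraries per group, P1041 and P1033 for WT and TP-1036 and TP-1040 for TG. The last 2 were taken as TG because their columns are marked as cases, and they are called TG-labelled. An embryonic age stands in the labels, which does not match such an injury, and no promoter, founder line or number of animals is named for the transgene. Libraries held 28866589 to 41215649 estimated reads. Plscr1 itself stood at 7.98 and 8.36 CPM (reads scaled to library size) in WT and at 9.80 and 8.06 in the TG-labelled libraries. These groups overlap, so the targeted gene does not tell the libraries apart by label. Retinal identity was plain, since the rod transducin gene Gnat1 stood at 12471 CPM or more in each library.

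Many lysosomal genes are known to carry the CLEAR element in their promoters, a site bound by TFEB and related factors whose core is CACGTG, and the myeloid factor PU.1 is known to bind sites holding GAGGAAGT. Promoters, meaning 250 bases before to 50 after a start site, were given by RefSeq on build GRCm38.p6 for 35 of the 39 genes, as 38 promoters. The windows below run from 130 bases before to 20 after the start. They show 3 lysosomal genes with the CLEAR core, of which Ctsd differed most and Mcoln1 least, and Ctss, the gene with the largest difference of the list. Capitals mark CACGTG in the first 3 and GAGGAAGT, read here on the opposite strand, in the last. All are written 5′ to 3′ along the gene's strand.
Ctsd, chr7:142387808-142387957, minus strand: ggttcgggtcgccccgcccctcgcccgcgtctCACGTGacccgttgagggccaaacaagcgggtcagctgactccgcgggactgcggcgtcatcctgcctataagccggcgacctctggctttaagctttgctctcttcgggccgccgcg
Lamp1, chr8:13159031-13159180, plus strand: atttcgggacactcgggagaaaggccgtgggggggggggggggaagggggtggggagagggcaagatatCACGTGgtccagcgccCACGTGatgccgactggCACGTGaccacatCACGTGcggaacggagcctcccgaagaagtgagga
Mcoln1, chr8:3500389-3500538, plus strand: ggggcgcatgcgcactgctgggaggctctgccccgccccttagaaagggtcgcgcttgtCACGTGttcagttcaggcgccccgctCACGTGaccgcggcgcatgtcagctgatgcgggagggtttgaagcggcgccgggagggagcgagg
Ctss, chr3:95526656-95526805, plus strand: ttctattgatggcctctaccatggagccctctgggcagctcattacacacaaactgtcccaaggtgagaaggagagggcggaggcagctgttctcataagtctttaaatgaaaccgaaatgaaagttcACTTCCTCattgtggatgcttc

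The core CACGTG, searched on both strands, was present in 13 of the 38 promoters (34.2%), against 7.15% of all 32851 promoters of the same length. The 13 were those of Arsa, Ctsa, Ctsd, Ctsf, Ctsl, Gaa, Gla, Glb1, Lamp1, Lgmn, Mcoln1, Naglu and Sgsh. Lamp1 held 4 copies in its window, which begin 61, 45, 28 and 15 bases before the start, and Ctsd held a further copy beyond its window. The longer form TCACGTGA, which contains the core, was found in 4 promoters (10.5%, against 0.974% of all), those of Ctsa, Ctsd, Gla and Mcoln1. A still longer form, which contains both, was also searched and was found in 0 of the 38 promoters, against 0.326% of all. GAGGAAGT was found in 4 promoters (10.5%, against 3.20% of all), those of Ctsc, Ctss, Gla and Gusb. A match describes the sequence and does not show that a factor binds there. The median log2 difference between genotypes was 0.28 over the 13 genes with CACGTG and 0.27 over the 22 without it. It was 0.45 over the 4 genes with GAGGAAGT, Ctss among them, and 0.26 over the 31 without it. Neither contrast was tested.

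Compared per transcript length, these genes covered a wide range of levels. Mean FPKM (reads scaled to library size and to the longest annotated transcript) ran from 3.20 for Idua, an enzyme of glycosaminoglycan breakdown, to 255 for Psap. The median of the list was 23.2 FPKM, against 8.94 over all tested genes. Psap, the precursor of the saposins that help enzymes reach sphingolipids, ranked 108 among the 12687 tested genes by FPKM. Next came the aspartic protease Ctsd at 244 FPKM, the cysteine protease Ctsb at 117, the membrane glycoprotein Lamp1 at 94.8, the asparaginyl protease Lgmn at 87.9 and the cysteine protease Ctsf at 71.3 FPKM. Psap lay above Ctsd in WT (232 against 194 FPKM) and in TP-1040 (258 against 252 FPKM). It lay below Ctsd only in TP-1036 (300 against 337 FPKM). The levels of both were above that of Ctsb in each library. At the low end Gusb, Glb1, Sgsh, Galc and Idua lay between 3.20 and 4.24 FPKM. In WT, Psap, Ctsb and Ctsd supplied 15.5%, 11.9% and 10.4% of the CPM summed over the 39 genes. In the TG-labelled libraries these shares were 15.3%, 13.1% and 12.9%.

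**Figure D1:**
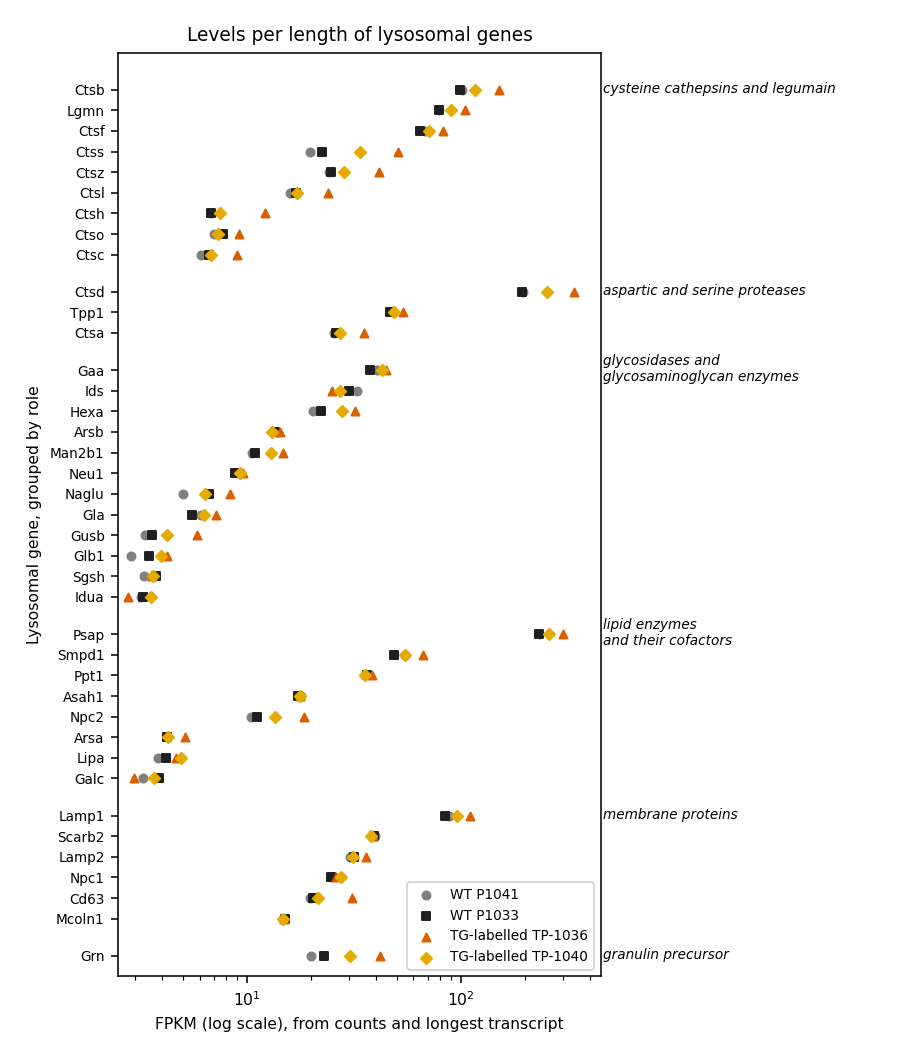
FPKM of the 39 lysosomal genes on a log axis, grouped by role, with 1 point per library (grey and black for WT, orange and yellow for TG-labelled). Mean levels run from 3.20 FPKM for Idua to 255 for Psap, and in most rows the TP-1036 triangle lies farthest to the right.

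Lysosomal genes had higher values in the TG-labelled retinas as a group, led by Ctss and Grn, and the size followed the library. Of the 39, 35 were higher and 4 lower, and their median log2 difference was 0.28, against 0.0023 over all tested genes, of which 50.4% were higher. In 29 genes both TG-labelled libraries lay above both WT libraries, where 23.8% of all tested genes did. In 1 gene, Ids, both lay below (24.1% of all tested genes), and in 9 the groups overlapped. A difference of over 1.5-fold was reached by 4 of the 39, Ctss, Grn, Ctsd and Npc2, against 2.03% of all genes. Summed over the list, the level was 4014 and 3895 CPM in WT and 5345 (TP-1036) and 4460 (TP-1040) CPM in the TG-labelled libraries. In bulk tissue a change in the number of cells of a type and a change in RNA per cell cannot be told apart.

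No single gene of the 39 passed at an adjusted p of 0.05 (edgeR, quasi-likelihood, Benjamini-Hochberg over 12687 genes, of which 0, or 0%, passed). Adjusted values of the 39 ran from 0.538 to 0.985. At an unadjusted p of 0.05, 12 members were higher and 0 lower, against 4.72% of all genes higher and 4.15% lower. The 12 were Ctss, Grn, Ctsd, Npc2, Ctsh, Gusb, Ctsz, Hexa, Ctsb, Man2b1, Glb1 and Lgmn. DESeq2 called 2 members, Ctss and Grn, both higher (0.544% of all genes called). Without P1041 the number at an unadjusted p was 6, all higher, where 1.57% of all genes were higher at that p. Without TP-1040 it was 28, of which 27 were higher and 1 lower, but calls rose over the whole table too, to 20.5% of all genes higher and 22.9% lower. With each library corrected for transcript length 16 members passed, all higher, where 6.72% of all genes were higher at that p.

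TP-1036 and TP-1040 did not differ from WT to the same degree. Against the mean of the WT libraries, which both share, the list's median log2 difference was 0.39 for TP-1036 against 0.14 for TP-1040. P1033 and P1041 differed from each other by a list median of -0.0065. In 31 of the 39 genes TP-1036 was the highest of the 4 libraries, against 4977 of all 12687 tested genes. Of the 39, TP-1040 was the highest in 3 and a WT library in 5. For 27 genes the order was TP-1036, then TP-1040, then both WT libraries, an order that 19% of all tested genes had. WT values lay within 10% of each other for 30 genes, and TG-labelled values for 12. The median absolute log2 gap was 0.076 between the WT libraries and 0.23 between the TG-labelled ones, against 0.10 and 0.21 over all tested genes. In 18 of the 39 genes the genotype difference was larger than the gaps within both groups. Neither this number nor those within 10% were counted over all tested genes, so whether they are unusual is not known. The list's median was 0.14 without TP-1036 and 0.39 without TP-1040. Of the 35 genes with higher values, 24 had a difference over 1.5 times smaller without TP-1036, and 14 one over 1.5 times larger without TP-1040. These numbers were not set against all tested genes either.

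**Figure D2:**
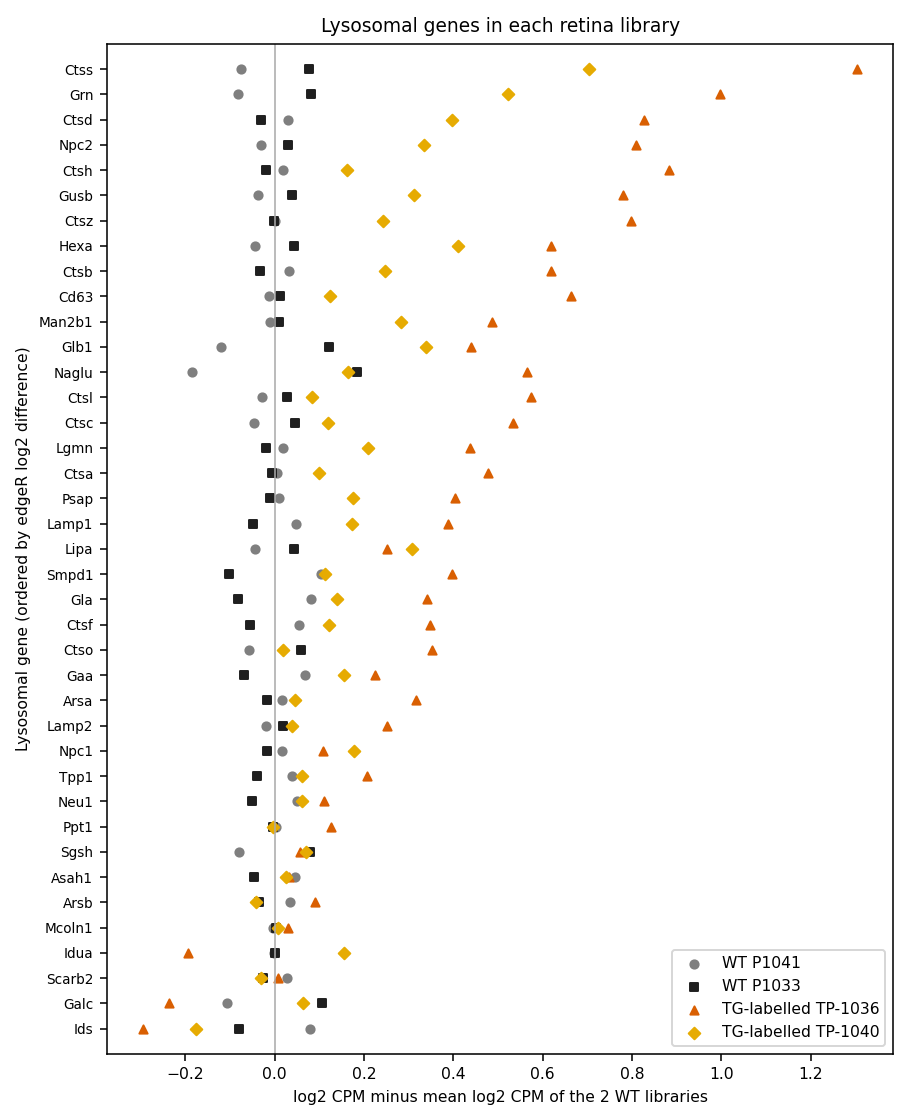
Log2 CPM of each of the 39 lysosomal genes in the 4 libraries, relative to the mean of the 2 WT libraries, ordered by edgeR log2 difference. From Ctss at 1.03 down to Ids at -0.24, TP-1036 (triangles) usually lies beyond TP-1040 (diamonds), while the WT points stay near 0.

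Among the cysteine cathepsins and legumain, proteases that cut proteins taken up or delivered by autophagy, all 9 had higher values, with a median of 0.35 (log2). Their summed level was 1008 and 982 CPM in WT, 1489 CPM in TP-1036 and 1154 CPM in TP-1040. Ctss, cathepsin S, is a protease of antigen-presenting cells that trims the class II invariant chain. Its level was 26.9 and 29.9 CPM in WT and 70.0 (TP-1036) and 46.2 (TP-1040) CPM in the TG-labelled libraries. Groups lay apart, with TP-1036 the highest, and the log2 difference was 1.03 ± 0.21 (SE), a 2.05-fold difference with an edgeR adjusted p of 0.538. Over the alternatives its difference was lowest at 0.71 (TP-1036 left out) and highest at 1.31 (TP-1040 left out). With no library left out, its adjusted p ran from 0.00127 in DESeq2 to 0.577 in edgeR at a mean FPKM of at least 5.

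Ctsb, a broadly expressed endopeptidase, had 483 and 462 CPM in WT against 726 and 561 CPM. Both TG-labelled values were above both WT values, and the difference was 0.45 ± 0.15 (log2, SE), or 0.25 without TP-1036. Ctsz, a carboxypeptidase, stood at 35.1 and 35.1 CPM in WT and at 61.0 and 41.5 CPM in the TG-labelled libraries. The aminopeptidase gene Ctsh had 18.7 and 18.2 CPM against 34.0 and 20.6 CPM, so most of its difference of 0.57 ± 0.23 came from TP-1036. Without that library it was 0.17.

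Lgmn, legumain, which also matures other cathepsins, was at 158 and 154 CPM in WT and 211 and 180 CPM in the TG-labelled libraries (0.33 ± 0.13, log2, SE). For Ctsl, an endopeptidase, TP-1036 held 150 CPM and TP-1040 107 CPM, against 99.1 and 103 CPM in WT, and its difference of 0.35 became 0.088 without TP-1036. Ctsc, the activator of granule serine proteases, showed the same shape at 29.5 and 22.1 CPM against 19.7 and 21.0 CPM. Ctsf, at 175 and 150 CPM against 143 and 132 CPM, differed by 0.24. Ctso, at 32.4 and 25.7 CPM against 24.4 and 26.4 CPM, was the one member of this group whose libraries overlapped.

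The aspartic protease Ctsd, cathepsin D, had the largest difference among the 6 members with the highest FPKM. Its CPM was 419 and 402 in WT, 728 in TP-1036 and 541 in TP-1040, or 411 ± 12 against 635 ± 133 (SD, n = 2 per group). The libraries did not overlap, and the log2 difference was 0.63 ± 0.17 (SE), or 1.55-fold. It was 0.40 without TP-1036 and 0.83 without TP-1040. Ctsa, the serine carboxypeptidase that protects β-galactosidase and neuraminidase, had 93.9 and 93.1 CPM in WT against 130 and 100 CPM (0.30). Tpp1, a tripeptidyl peptidase, differed by 0.14, with 179 and 170 CPM against 201 and 182 CPM.

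Grn, the precursor of the progranulin peptides that support lysosomal function, came second after Ctss. It had 47.0 and 52.7 CPM in WT and 99.4 (TP-1036) and 71.5 (TP-1040) CPM in the TG-labelled libraries. Every TG-labelled value exceeded every WT value, and the difference was 0.78 ± 0.18 (log2, SE), or 1.71-fold. It kept its direction in all alternatives, with 0.52 (TP-1036 left out) and 1.00 (TP-1040 left out) as the extremes. With no library left out, the adjusted p of Grn ran from 0.0193 in DESeq2 to 0.577 in edgeR at a mean FPKM of at least 5.

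The 12 glycosidases and glycosaminoglycan enzymes were mixed, with 10 higher, 2 lower and a median of 0.22. Hexa, the α subunit of β-hexosaminidase, stood at 40.9 and 43.4 CPM in WT and at 64.7 and 56.0 CPM in the TG-labelled libraries, with no overlap. The difference of 0.52 ± 0.12 (log2, SE) was 0.41 without TP-1036. Gusb, β-glucuronidase, had 9.00 and 9.48 CPM against 15.9 and 11.5 CPM (0.56 ± 0.19). Man2b1, an α-mannosidase, had 40.6 and 41.1 CPM in WT against 57.2 and 49.7 CPM (0.39 ± 0.12). Glb1, β-galactosidase, was low, with 233 and 317 reads in WT and 454 and 456 in the TG-labelled libraries (0.38 ± 0.16). Naglu, which removes N-acetylglucosamine from heparan sulfate, had 12.9 and 16.7 CPM in WT against 21.7 and 16.4 CPM, so its groups overlapped.

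Of the other genes of this role, Gaa, Gla and Neu1 lay above WT in both TG-labelled libraries. Gaa, the acid α-glucosidase that degrades glycogen, and Gla, α-galactosidase A, differed by 0.19 and 0.24, or by 0.16 and 0.14 without TP-1036. Neu1, a neuraminidase, differed by 0.086, and the sulfatase genes Sgsh and Arsb by 0.061 and 0.025. Idua, α-iduronidase, was at 11.4 and 11.4 CPM in WT, with TP-1036 below at 9.95 and TP-1040 above at 12.7 CPM. Ids, iduronate 2-sulfatase, was the sole gene of the list with both TG-labelled libraries below WT. It had 163 and 146 CPM in WT against 126 and 137 CPM, a difference of -0.24 ± 0.12 (log2, SE) that was negative in all alternatives. Both enzymes act on the same iduronate-containing chains of dermatan and heparan sulfate.

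Among the 8 lipid enzymes and cofactors, 7 were higher and 1 lower, with a median of 0.22. Npc2, the soluble carrier that hands cholesterol to NPC1, led this group with 34.8 and 36.3 CPM in WT and 62.2 and 44.8 CPM in the TG-labelled libraries. The groups lay apart, and the difference was 0.59 ± 0.17 (log2, SE), or 0.34 without TP-1036. Psap had 617 and 608 CPM against 811 and 691 CPM (0.29 ± 0.13). Lipa, the acid lipase of cholesteryl esters, had 15.1 and 16.0 CPM in WT and 18.5 and 19.2 CPM in the TG-labelled libraries, and here TP-1040 was the higher one.

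Smpd1, acid sphingomyelinase, differed by 0.26, and Arsa, arylsulfatase A, by 0.19, values that fell to 0.11 and 0.049 without TP-1036. Ppt1, a palmitoyl-protein thioesterase, and Asah1, acid ceramidase, had overlapping groups, with differences of 0.063 and 0.028. Galc, galactosylceramidase, had 14.6 and 16.9 CPM in WT against 13.4 and 16.4 CPM (-0.08 ± 0.16, log2, SE), and its sign turned without P1033 (0.029) and without TP-1036 (0.063).

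Membrane proteins differed least of the larger roles, with 5 of 6 higher and a median of 0.15. Cd63, a tetraspanin of late endosomes and lysosomes, had 57.3 and 58.2 CPM in WT, 91.4 CPM in TP-1036 and 62.9 CPM in TP-1040 (0.42 ± 0.18, log2, SE), and differed by 0.13 without TP-1036. Lamp1 stood at 198 and 185 CPM against 251 and 216 CPM (0.28 ± 0.13). Lamp2 had 110 and 112 CPM in WT against 132 and 114 CPM (0.15). Npc1, the membrane partner of Npc2 in cholesterol export, was at 143 and 139 CPM against 152 and 159 CPM (0.14 ± 0.11).

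Scarb2, the receptor that carries glucocerebrosidase to lysosomes, and the cation channel gene Mcoln1 were close to level. Scarb2 had 188 and 181 CPM in WT against 186 and 181 CPM (-0.01 ± 0.11, log2, SE), and Mcoln1 42.7 and 42.9 CPM against 43.7 and 43.0 CPM (0.02 ± 0.11). The sign of Scarb2 turned with upper-quartile scaling, with a length correction and without P1041 or TP-1040, and that of Mcoln1 in limma. Npc1 and Npc2, which act in a single route of cholesterol export, thus had log2 differences of 0.14 and 0.59, and the difference between these 2 values was not tested.

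Other genes of the organelle, from lists of its machinery, had medians below that of the 39 in 7 of 8 lists, the cathepsin inhibitors being the exception, and the differences between lists were not tested. The exception rested on TP-1036, since without it the inhibitors' median was 0.083 and that of the 39 was 0.14. V-ATPase subunits, which acidify the lumen, had a median of 0.061 (15 of 18 higher, 0 at an unadjusted p of 0.05). Without TP-1036 their median was -0.025. In 2 of the 18 (11.1%) both TG-labelled libraries lay above both WT libraries, against 23.8% of all tested genes. The largest differences of the 18 were those of Atp6v1f (0.27), Atp6v0d1 (0.23) and Atp6v0c (0.16), which became 0.087, 0.064 and -0.026 without TP-1036. V-ATPase reads summed to 3191 and 2914 CPM in WT and 3457 and 3026 CPM in the TG-labelled libraries, so the groups overlapped.

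Other lysosomal hydrolases numbered 23 tested of 27 listed, with a median of 0.15 and 20 higher. At an unadjusted p of 0.05 in edgeR, 4 (17.4%) were higher and 0 lower, against 4.72% and 4.15% of all tested genes. Smpdl3a, a phosphodiesterase related to acid sphingomyelinase, differed by 0.68 on the log2 scale, and the fucosidase gene Fuca1 by 0.45, or 0.60 and 0.21 without TP-1036. Among 25 other membrane proteins and transporters the median was 0.055, with 13 higher and 12 lower. Laptm5 and Cd68, both of leukocytes and macrophages, stood out at 1.22 ± 0.21 and 1.11 ± 0.21 (log2, SE), whereas Slc38a9, an amino acid sensor, lay at -0.44 with overlapping groups and at -0.12 without TP-1036.

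The TFEB family and mTORC1 genes of the lysosome surface had a median of 0.083 over 20 members, 12 higher and 8 lower. Tfe3, chosen here after its value was seen, was the one at an unadjusted p of 0.05. That is 5% of the list, against 4.72% of all tested genes higher at that p. Tfe3 had 37.9 and 38.2 CPM in WT against 46.2 and 46.4 CPM (0.29 ± 0.11, log2, SE). Tfeb, named after its value was seen as well, had 7.46 and 7.76 CPM against 10.2 and 8.04 CPM. The largest differences of that list were Zkscan3 (-0.34), Tsc1 (-0.33) and Lamtor2 (0.32), or -0.21, -0.16 and 0.067 without TP-1036. Against the WT mean, TP-1036 alone differed by -0.46, -0.52 and 0.54 in these genes. With each library corrected for transcript length, those values were -0.27, -0.20 and 0.24. Mannose 6-phosphate sorting genes had a median of -0.018 (6 of 14 higher), with the receptor genes Igf2r at -0.30 and M6pr at 0.17 and the adaptor subunit Ap1g1 at -0.15. Without TP-1036 these were -0.044, 0.065 and 0.011, and the median was 0.025. For TP-1036 alone against the WT mean, Igf2r, M6pr and Ap1g1 were at -0.59, 0.27 and -0.32. The length correction brought them to -0.22, 0.25 and -0.058.

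Genes that move lysosomes and fuse them had a median of -0.041 (5 of 13 higher), with Borcs5 at 0.30 (0.14 without TP-1036), Vps18 at 0.27 and Tmem55b at -0.16. Autophagy genes had a median of 0.066 (15 of 22 higher). Wipi1, a phosphoinositide-binding protein of autophagosome formation, was at 70.7 and 76.0 CPM in WT against 116 and 88.6 CPM (0.48, or 0.28 without TP-1036). Gabarap differed by 0.31, or 0.14 without TP-1036. Atg7 had overlapping groups, at 23.1 and 22.6 CPM in WT against 30.2 and 22.9 CPM, and its difference of 0.22 became 0.011 without TP-1036. Of 10 listed cathepsin inhibitors 5 were tested and all 5 had higher values (median 0.33). The gene of cystatin C (Cst3), with the most reads of these, had 531 and 466 CPM in WT against 762 and 497 CPM, so its groups overlapped. The inhibitor genes Cst7 and Serpinb9 were low, with 1.05 and 0.939 CPM against 1.90 and 1.13 CPM and with 4.78 and 5.79 CPM against 7.71 and 5.59 CPM. Their differences of 0.61 and 0.33 became 0.19 and 0.083 without TP-1036, and the groups of Serpinb9 overlapped. Over all 140 other tested genes of the organelle the median was 0.072, and 91 (65%) were higher, against 50.4% of all tested genes. At an unadjusted p of 0.05 in edgeR, 9 (6.43%) were higher and 0 lower, against 4.72% and 4.15% of all tested genes.

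**Figure D3:**
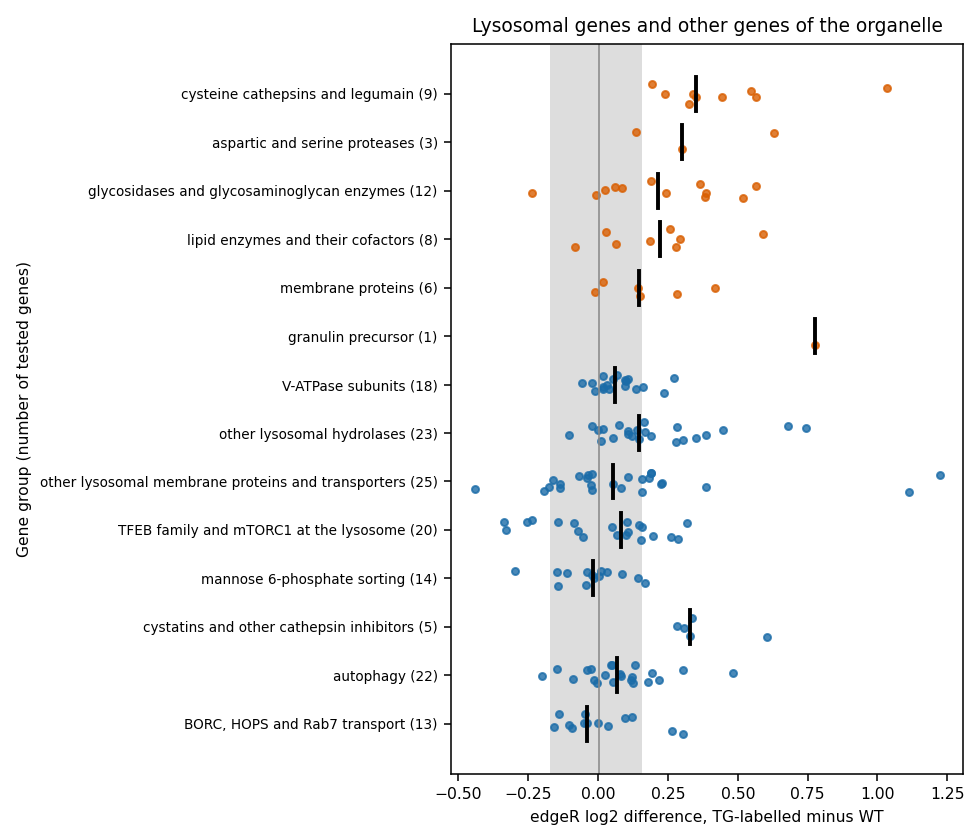
EdgeR log2 difference (TG-labelled minus WT) of each gene, for the 39 lysosomal genes by role (orange) and for other genes of the organelle by list (blue). Black bars are medians, and the grey band spans the quartiles of all tested genes (-0.17 to 0.15). Cathepsins sit to the right of the band, while V-ATPase, sorting and transport genes lie mostly within it.

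Markers of other cell types also differed between the libraries. Of the 22 listed microglia and macrophage markers, all were in the table and 20 were tested. All 20 had higher values, and without Ctss, which is in both lists, they summed to 227 and 254 CPM in WT and to 586 (TP-1036) and 399 (TP-1040) CPM in the TG-labelled libraries. That is 244% and 166% of the WT mean, against 135% and 113% for the 39 lysosomal genes. Among those with the most reads, the receptor gene Csf1r had 32.4 and 41.0 CPM in WT against 75.0 and 45.0 CPM. No microglia marker was at 0 in the table, and Aif1, named after its value was seen, was as low as 0.453 CPM in P1041.

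Müller glia markers, 14 of 14 tested and all higher, summed to 96.8% and 103% of the WT mean in WT, 157% in TP-1036 and 121% in TP-1040. Glul and Clu held the most reads of these genes and differed by 0.23 and 0.52 on the log2 scale, while Apoe, named after its value was seen, differed by 1.04, the most of the list. Pigment epithelium markers (11 of 12 in the table, 8 tested) summed to 48.0 and 78.3 CPM in WT against 126 and 80.3 CPM, with 5 higher and 3 lower and log2 differences from -0.85 to 1.42. The most reads came from Ttr (11.2 and 14.9 against 41.6 and 28.4 CPM) and Rgr (10.8 and 14.8 against 31.1 and 22.4 CPM). Lens genes (4 of 17 in the table) summed to 41.5 and 37.2 CPM in WT, 328 CPM in TP-1036 and 52.7 CPM in TP-1040, mostly from Cryaa and Cryab.

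Astrocyte markers (4 of 5 tested) summed to 172 and 146 CPM in WT against 253 and 188 CPM, with the most reads from Gfap and Aldh1l1. Rod markers (11 of 11 tested) summed to 119% and 108% of the WT mean, and endothelial and mural markers (9 of 11 tested) to 110% and 117%. The latter had 7 higher and 2 lower, and the members with the most reads, Kdr and Flt1, differed by 0.18 and 0.28. All 13 ganglion cell markers had lower values, with a median of -0.57, and those with the most reads were Nefl (-0.58) and Thy1 (-0.36, overlapping groups). They summed to 75.6% and 66.1% of the WT mean in the TG-labelled libraries, but the WT libraries themselves lay at 119% and 81.5%. The part of these cell types in the lysosomal differences was not tested. With Ctss left out, the median of the remaining 38 lysosomal genes was 0.27. Leaving out a single gene can hardly move a median, so this value does not address the part of any cell type.

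**Figure D4:**
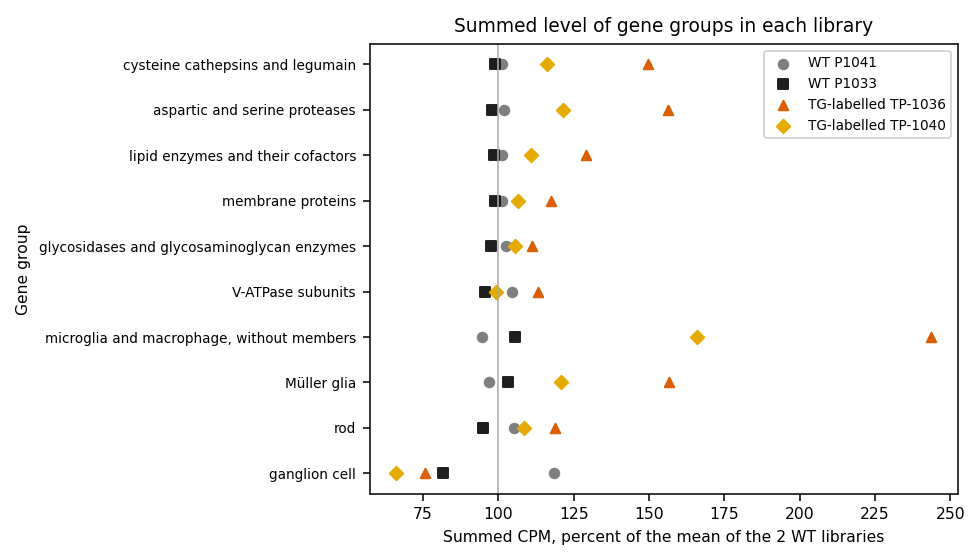
Summed CPM of lysosomal roles, V-ATPase subunits and cell type markers in each library, as a percent of the mean of the 2 WT libraries (grey line at 100). Microglia and macrophage markers reach 244% for TP-1036 and 166% for TP-1040, and proteases stand higher than membrane proteins or glycosidases.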

How the data were processed

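Libraries were made from total RNA with an Illumina TruSeq kit, per the labels' protocols. The authors deposited estimated counts per gene, and the submitters' processing notes name Bowtie 0.12.2, mm8 and mm9. The read counter, annotation and strand setting were not given in the sources used here. A set of 4 further columns of values per library were not used. Column names give the group but no replicate number, so no library could be matched to a single sample. Nothing says that libraries came from separate animals, so p-values measure only how far these libraries spread, which may be technical. Libraries of a group differed beyond sampling noise (chi-square over degrees of freedom of 11.0 in WT and 59.7 in TG).

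Counts were rounded and tested with edgeR 4.0.16 (limma 3.58.1, R 4.3.3) by quasi-likelihood with TMM scaling, two-sided, with Benjamini-Hochberg adjustment over 12687 genes (mean FPKM 1 or more). FPKM used the longest GENCODE M21 transcript, or the median of 3472 bases for 167 unmatched entries. CPM values are TMM-scaled, SE is the log2 difference over the root of F, and differences for 1 library use a prior count. DESeq2 1.42.0 and limma on log2(FPKM + 1) were alternatives. On simulated data edgeR recovered 90 of 100 genes made to differ 2-fold and 100 of 100 made to differ 4-fold, with 6 false calls among 12487. In the deposited data edgeR called 0 of 12687 genes, and Ctss, at 2.05-fold, had an adjusted p of 0.538. The simulated libraries of both groups were drawn with the same spread for genes of a given level. The deposited pairs were not alike, with chi-square over degrees of freedom of 11.0 in WT and 59.7 in TG. The recovery on simulated data therefore does not tell how many such genes would be called in the deposited data.

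The members, gene lists and tests were chosen with earlier results of these data known. Named in full were members at an unadjusted p of 0.05, the 10 with the largest difference, the 6 with the highest FPKM and the 3 with the smallest difference, then 3 genes per organelle list and 2 per marker list, and some of these are not reported here. The counts of 11 of the 39 were not whole, among them Ctsb, Ctsd, Ctsl and Grn, and how their reads were divided is not known. In GENCODE M21, 8 of the 39 overlap exons of another gene in the table (Grn, Ctsz, Ctsb, Glb1, Ctsa, Lamp1, Ppt1 and Idua), and without a stated strand setting their reads are less certain.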

Additional observations from a re-analysis of the deposited data

How the results depend on the processing

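The median of the 39 genes stayed positive in all 13 alternatives, with 0.14 (TP-1036 left out) and 0.39 (TP-1040 left out) as its extremes, and was 0.24 with a correction of each library for transcript length, where 16 members had an unadjusted p of 0.05. Members with higher values numbered 33 to 37 where all 39 were tested, and 30 of 32 at a mean FPKM of at least 5. Members called were 0 in edgeR and 2 in DESeq2, and 0 to 23 when 1 library was left out. The 23, without TP-1040 (30.9% of all genes called), held Ids as the one lower gene, and Ctss alone was called without P1033. Members higher at an unadjusted p of 0.05 ran from 6 (without P1041, 1.57% of all genes) to 27 (without TP-1040, 20.5%), and lower ones from 0 to 1 (without TP-1040, 22.9%). Genes called over the whole table were 0 in edgeR, 1 with upper-quartile scaling, 1 with no filter, 1 at a mean CPM of at least 1, 2 in limma with a pseudocount of 1 and 2 with 0.1, 69 in DESeq2, and 27 to 3923 when 1 library was left out. Leaving out a library leaves a lone sample in a group, which is assumed to vary like the other group.

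Signs turned for 7 of the 39, all with small differences. Idua was at 0.0083 with upper-quartile scaling, 0.0023 with no filter, 0.00081 at a mean CPM of at least 1, 0.0034 with the length correction and 0.16 without TP-1036, with -0.19 without TP-1040. Scarb2 was at 0.0070 with upper-quartile scaling, 0.049 with the length correction, 0.015 without P1041 and 0.013 without TP-1040, with -0.038 without P1033. In limma with pseudocounts of 1 and 0.1, Arsb was at -0.0028 and -0.0031 and Mcoln1 at -0.0076 and -0.0081. Arsb was also at -0.0086 without P1033 and -0.038 without TP-1036, with 0.095 without TP-1040, Sgsh at -0.016 without P1041 and 0.14 without P1033, Asah1 at -0.017 without P1033 and 0.074 without P1041, and Galc at 0.029 without P1033 and 0.063 without TP-1036, with -0.24 without TP-1040. The cause was not tested. No paired analysis was possible because the columns carry no replicate number. With 2 libraries per group, edgeR in its main setting called 0 genes of any size at this depth and spread. Among those not called were Ttr at 2.68-fold and Laptm5 at 2.34-fold, each with an edgeR adjusted p of 0.529.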
